A study of Mus musculus with 6 samples.

Results

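Serine, one-carbon and asparagine synthesis is represented here by 10 genes, taken by symbol from the gene rows of 6 RNA-seq libraries that hold 23406 distinct names. Each symbol stood on exactly 1 row, and all 10 passed the filter on low values (at least 1 FPKM in at least 2 libraries). Serine is made from the glycolytic intermediate 3-phosphoglycerate by the enzymes that Phgdh, Psat1 and Psph encode, in that order. Serine hydroxymethyltransferase then moves a carbon unit from serine onto tetrahydrofolate, giving glycine, and the folate-bound unit feeds purine and thymidylate synthesis, methylation and mitochondrial formylmethionine. The same chemistry runs in parallel in the cytosol (Shmt1, Mthfd1) and in mitochondria (Shmt2, Mthfd2, Mthfd1l, Aldh1l2), and in proliferating cells the mitochondrial branch is known to export formate to the cytosolic one. Asns encodes asparagine synthetase. Asns, Phgdh, Psat1 and Mthfd2 are textbook targets of ATF4, the transcription factor of the amino acid and integrated stress responses.

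Mouse embryonic fibroblasts were reprogrammed with OSKM, the factor set Oct4, Sox2, Klf4 and Myc, and collected at day 7. KO cells had both Adar1 alleles floxed (Fl/Fl) and received 4-hydroxytamoxifen (4OHT, n = 2), and WT cells had the same alleles and received vehicle (Veh, n = 2). MUT cells had 1 floxed and 1 E861A allele (Fl/E861A) and received 4OHT (n = 1), and HET cells had those alleles and received vehicle (n = 1). Adar1 encodes the RNA-editing enzyme ADAR1, and E861A is known to abolish its editing. 4OHT commonly serves to switch on an inducible Cre, but the labels used here do not name the Cre, its promoter, the deleted exons or whether replicates were separate cultures. The p-values thus rest on library-to-library spread that may be technical. Every library carried at least 1 floxed allele, and 4OHT was given in KO and MUT alone, so loss of Adar1 and the drug itself cannot be told apart. Adar averaged 32.8 ± 2.07 FPKM in KO and 19.5 ± 0.04 FPKM in WT (SD, n = 2 each), and a value for the whole gene does not check a deletion of some exons.

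The values are FPKM, fragments scaled to transcript length and library total, so levels of different genes can be compared per length. Read totals are not given, and from the step size of low values the depth was estimated at 15600000 (MUT) to 21600000 (KO 1) fragments. Pearson's r between replicates was 0.995 in KO and 0.995 in WT over 12266 tested genes on the log2(FPKM + 1) scale. Fibroblast markers (8 of 8 tested) summed to 2391 and 2397 FPKM in KO and 5057 and 4672 FPKM in WT, and to 3221 FPKM in MUT and 4492 FPKM in HET. Vim held most of the KO sums (1720 and 1842 FPKM in KO, 1728 and 1737 FPKM in WT). Neither Vim (log2 difference 0.04, limma adjusted p = 0.766) nor Thy1 (-0.25, adjusted p = 0.0963) passed an adjusted p under 0.05. The other fibroblast markers fell in KO, Col3a1 most (log2 difference -4.03). Pluripotency markers (8 of 8 tested) summed to 21.3 and 7.69 FPKM in KO, 592 and 472 FPKM in WT, 41.8 FPKM in MUT and 609 FPKM in HET. All 8 fell in KO. Pou5f1, which encodes Oct4, had 8.03 and 2.50 FPKM in KO, 222 and 175 FPKM in WT, 12.8 FPKM in MUT and 272 FPKM in HET. Transcripts of the introduced Oct4 and of the cells' own gene are not separated in these values. Epithelial markers (6 of 6 tested) summed to 11.01 and 9.17 FPKM in KO, 133 and 147 FPKM in WT, 12.8 FPKM in MUT and 178 FPKM in HET. Of 5 macrophage markers Adgre1, Csf1r and Ptprc were under 1 FPKM in every library, and Cd68 shares its row with Eif4a1 and Senp3 and cannot be read alone. The fifth, Laptm5, fell in KO (3.31 and 2.83 FPKM in KO, 23.4 and 19.9 FPKM in WT, 5.88 FPKM in MUT, 36.7 FPKM in HET, adjusted p = 7.46e-08). The hepatocyte markers Apoa1, Ttr and Afp were listed at 0. The neural list summed to 51.6 and 66.6 FPKM in KO, 150 and 164 FPKM in WT, 56.1 FPKM in MUT and 184 FPKM in HET. Stmn2 held the largest part of it (27.7 and 38.5 FPKM in KO, 106 and 117 FPKM in WT). Stmn2, Tubb3 and Map2 fell, while Nes rose (9.95 and 10.9 FPKM in KO, 6.27 and 5.35 FPKM in WT). Endothelial markers summed to 4.44 and 4.34 FPKM in KO and 4.53 and 4.13 FPKM in WT, but Kdr rose (3.41 and 3.27 FPKM in KO, 0.70 and 0.54 FPKM in WT) while Pecam1 and Tek fell (log2 differences -0.88 and -0.92) and Cdh5 was under 1 FPKM throughout. The part of these cell-state markers in the results that follow was not tested. In bulk RNA, fewer cells of a type and less RNA per cell cannot be told apart.

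All 10 genes differed between KO and WT, and they split by role. The 3 serine synthesis genes, the 4 mitochondrial folate genes and Asns rose in KO, and both cytosolic folate genes, Shmt1 and Mthfd1, fell. The spread of sizes was wide, with Aldh1l2 5.12-fold higher and Shmt1 at 0.302 of its WT mean. A gene was called by limma at an adjusted p under 0.05 over all 12266 tested genes. By that rule 57.7% of all tested genes were called, 29.5% higher and 28.2% lower in KO, so a call alone sets no gene apart from the rest. The median log2 difference over all tested genes was 0.02, and it was 0.93 over the 10 genes. None of the 10 had KO and WT libraries that overlapped, but with 2 libraries each this sets no gene apart. The share of all tested genes without overlap was not counted. Genes that were not called, Srr, Cth and Mat2a among them, did not overlap either.

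**Figure D1:**
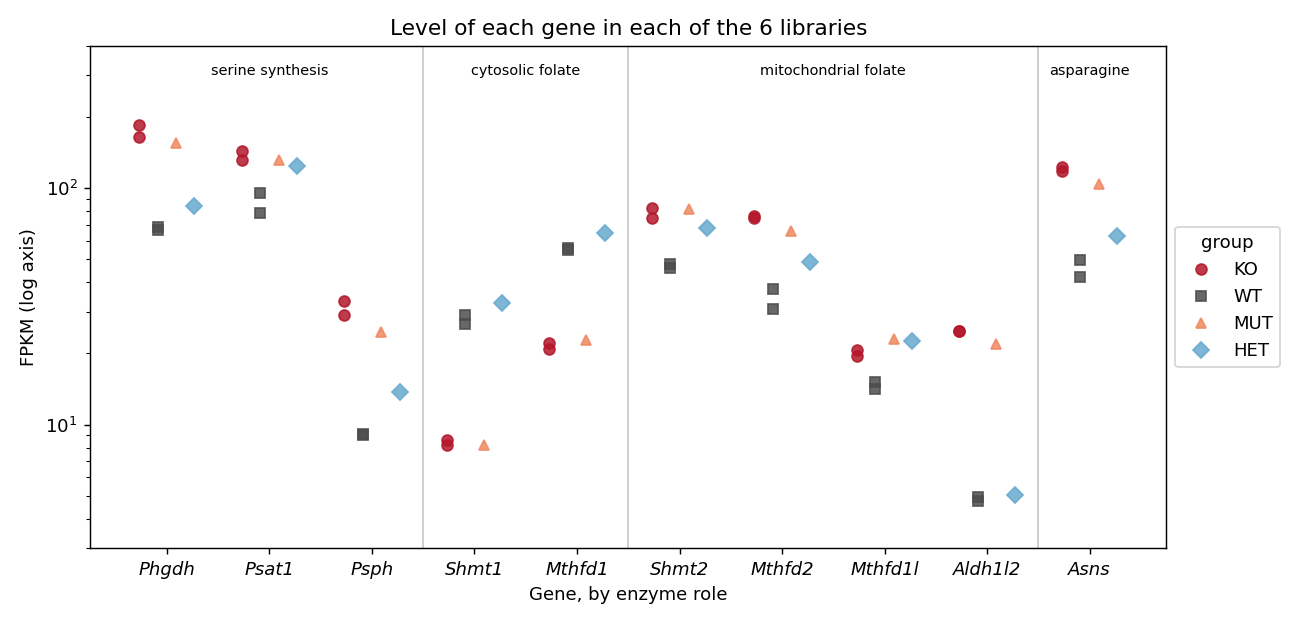
FPKM (log axis) of the 10 genes in each library, with genes ordered by enzyme role and 1 point per library (KO and WT 2 each, MUT and HET 1 each). Shmt1 and Mthfd1 are lower in the KO and MUT libraries than in the WT and HET libraries, and Aldh1l2 is near 25 FPKM in KO, 21.9 FPKM in MUT and near 5 FPKM in WT and HET.

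Phgdh, the first and committed enzyme of serine synthesis (ENSMUSG00000053398.11, GRCm38 chromosome 3, 98313170 to 98339990, minus strand), had 186 and 165 FPKM in KO libraries, against 66.8 and 68.4 FPKM in WT libraries. Both KO libraries lay far above both WT libraries. The means were 175 ± 14.7 FPKM in KO and 67.6 ± 1.15 FPKM in WT (SD, n = 2 each). The log2 difference was 1.36, with an SE of 0.10 and a limma adjusted p of 1.4e-06. In the lone libraries Phgdh stood at 155 FPKM in MUT and 84.4 FPKM in HET.

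Psat1, the aminotransferase of the second step (ENSMUSG00000024640.9, chromosome 19, 15904678 to 15947337, minus strand), had 132 and 144 FPKM in KO and 78.6 and 95.2 FPKM in WT. Its rise was the smallest of the serine genes, 0.67 on the log2 scale (SE 0.11, adjusted p = 0.000556). MUT and HET were close to each other, at 132 and 124 FPKM, and both lay above the WT libraries. Psph, the phosphatase that releases serine (ENSMUSG00000029446.14, chromosome 5, 129765558 to 129787449, minus strand), was the lowest of the 3, with 29.2 and 33.4 FPKM in KO and 9.10 and 9.04 FPKM in WT. It was 3.45-fold higher in KO (log2 difference 1.68, SE 0.10, adjusted p = 4.49e-07), and stood at 24.8 FPKM in MUT and 13.7 FPKM in HET. The 3 genes together held 347 and 343 FPKM in KO, 155 and 173 FPKM in WT, 311 FPKM in MUT and 223 FPKM in HET. Psph shares its interval in the files with a row named Cct6a,Sumf2, and Cct6a overlaps it by 452 bases on the other strand. That row was not called (168 and 174 FPKM in KO, 158 and 195 FPKM in WT, adjusted p = 0.79).

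Shmt1, the cytosolic serine hydroxymethyltransferase (ENSMUSG00000020534.14, chromosome 11, 60788104 to 60811718, minus strand), had 8.23 and 8.61 FPKM in KO libraries and 26.7 and 29.1 FPKM in WT libraries. It was the lowest of the 10 genes in KO and in MUT, where it stood at 8.24 FPKM, against 32.7 FPKM in HET. The KO and MUT libraries lay together, far under the WT and HET libraries. Shmt1 fell in KO, with a log2 difference of -1.62 (SE 0.10, adjusted p = 4.48e-07). Smcr8, on the other strand with an overlap of 184 bases, rose in KO, with 13.7 and 12.2 FPKM in KO and 8.02 and 7.87 FPKM in WT (log2 difference 0.64, adjusted p = 0.000428).

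Mthfd1, the trifunctional cytosolic enzyme that interconverts folate-bound carbon units and joins formate to tetrahydrofolate (ENSMUSG00000021048.7, chromosome 12, 76255298 to 76319803, plus strand), had 22.2 and 20.9 FPKM in KO and 55.8 and 54.8 FPKM in WT. It ranked number 8 of the 10 genes by level in KO and number 3 in WT. The log2 difference was -1.32 (SE 0.09, adjusted p = 1.24e-06). MUT and HET showed the same split, at 22.7 and 64.8 FPKM. Proliferation genes moved with these 2 genes. All 15 tested members of a list of cell cycle and replication genes fell in KO (median log2 difference -1.83). Among all tested genes, 28.2% were called as lower. The summed level of the list was 313 and 289 FPKM in KO, 950 and 1029 FPKM in WT, 446 FPKM in MUT and 1309 FPKM in HET. The largest falls were those of the mitotic cyclins Ccnb1 (log2 difference -3.03) and Ccnb2 (-2.69), of Rrm2, a ribonucleotide reductase subunit (-2.35), and of Mki67 (-2.25). Their part in the fall of Shmt1 and Mthfd1 was not tested.

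Shmt2, the mitochondrial serine hydroxymethyltransferase (ENSMUSG00000025403.5, chromosome 10, 127517123 to 127522444, minus strand), had 82.1 and 74.5 FPKM in KO and 47.8 and 46.1 FPKM in WT. Its log2 difference was 0.72 (SE 0.10, adjusted p = 0.000112), and it stood at 81.4 FPKM in MUT and 68.0 FPKM in HET. Ndufa4l2, which overlaps Shmt2 by 32 bases on the other strand, fell in KO (0.09 and 0.10 FPKM in KO, 1.83 and 0.92 FPKM in WT, 0.51 FPKM in MUT, 8.01 FPKM in HET). Mthfd2, the mitochondrial methylenetetrahydrofolate dehydrogenase and cyclohydrolase (ENSMUSG00000005667.8, chromosome 6, 83305691 to 83325908, minus strand), had 74.9 and 76.2 FPKM in KO and 30.8 and 37.6 FPKM in WT. Its rise was larger than that of Shmt2, at 1.13 (SE 0.11, adjusted p = 1.22e-05), and in KO the 2 genes had overlapping levels. MUT stood at 66.0 FPKM and HET at 48.8 FPKM.

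Mthfd1l, which releases formate in mitochondria (ENSMUSG00000040675.17, chromosome 10, 3973118 to 4167081, plus strand), had 20.8 and 19.5 FPKM in KO and 14.1 and 15.1 FPKM in WT. This was the smallest difference of the 10 genes, 0.44 on the log2 scale (SE 0.10, adjusted p = 0.00351). It was the only one of the 10 whose KO and MUT libraries overlapped the WT and HET libraries. The HET library, at 22.6 FPKM, lay above both KO libraries and just under MUT, at 23.0 FPKM. Aldh1l2, the mitochondrial formyltetrahydrofolate dehydrogenase that oxidises formyl units to carbon dioxide and makes NADPH (ENSMUSG00000020256.14, chromosome 10, 83487450 to 83534140, minus strand), had the largest difference. It had 24.8 and 24.9 FPKM in KO and 4.75 and 4.95 FPKM in WT, a log2 difference of 2.14 (SE 0.10, adjusted p = 6e-08). It was the lowest of the 10 genes in WT and in HET, at 5.03 FPKM, and stood at 21.9 FPKM in MUT. D10Wsu102e, which overlaps it by 1056 bases on the other strand, fell in KO (log2 difference -0.51, adjusted p = 0.00263). The use of strand in the authors' counting is not given in the sources used here, so reads in such overlaps cannot be told apart.

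Asns (ENSMUSG00000029752.12, chromosome 6, 7675169 to 7693254, minus strand) had 123 and 118 FPKM in KO libraries, against 42.3 and 49.6 FPKM in WT libraries. It was 2.62-fold higher in KO, with means of 121 ± 3.57 FPKM in KO and 46.0 ± 5.12 FPKM in WT (SD, n = 2 each). On the log2 scale this was 1.38 (SE 0.10, adjusted p = 1.88e-06). MUT and HET stood at 104 and 62.7 FPKM. The Asns promoter is shown because it holds the elements through which human ASNS is known to answer amino acid lack. The RefSeq window of 250 bases before to 50 bases after the annotated start (GRCm38.p6, chr6:7693160-7693459, minus strand) reads, 5′ to 3′ with matches to TGATGNAA and GTTACA in capitals, as follows.
Asns: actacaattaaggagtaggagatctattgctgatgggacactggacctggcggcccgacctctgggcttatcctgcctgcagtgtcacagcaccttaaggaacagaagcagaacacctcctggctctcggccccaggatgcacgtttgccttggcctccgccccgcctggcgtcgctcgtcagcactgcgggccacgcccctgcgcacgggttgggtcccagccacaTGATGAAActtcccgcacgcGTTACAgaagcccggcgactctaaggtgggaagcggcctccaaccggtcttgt
TGATGNAA, the core shared by ATF4 and C/EBP composite elements, begins 23 bases before the start, and GTTACA begins 3 bases before it. On either strand, TGATGNAA occurred in 3.97% of 32851 promoter windows of this length and GTTACA in 8.25%. The table held windows for 9 of the 10 genes, all but Aldh1l2. Of these 9, only Asns had TGATGNAA or GTTACA, and none had CACGTG, the E-box bound by MYC, which 7.15% of all windows held. A match is a description of letters and says nothing of binding, and GTTACA was added after the window had been read.

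**Figure D2:**
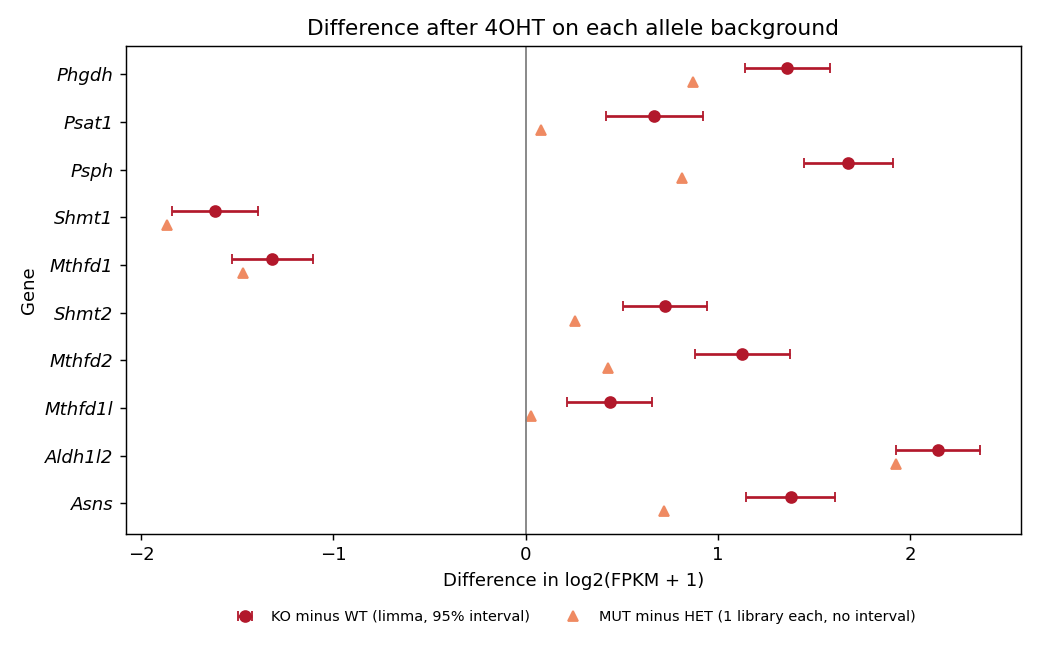
Difference in log2(FPKM + 1) for each gene between KO and WT (circles, limma estimate with its 95% interval, 2 libraries each) and between MUT and HET (triangles, 1 library each, no interval). Shmt1 and Mthfd1 lie left of 0 in both, the other 8 genes lie right of 0, and the triangles of Psat1 (0.08) and Mthfd1l (0.03) lie next to 0.

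The question of which compartment the folate genes favour was put to each library by the ratio of summed FPKM, mitochondrial (Shmt2, Mthfd2, Mthfd1l and Aldh1l2) over cytosolic (Shmt1 and Mthfd1). The ratio was 6.66 and 6.60 in KO and 1.18 and 1.24 in WT. It was 6.21 in MUT and 1.48 in HET. The KO and MUT libraries thus stood together and apart from the vehicle libraries. Mitochondrial genes held 86.9% and 86.8% of the summed level of these 6 genes in KO, 54.2% and 55.3% in WT, 86.1% in MUT and 59.7% in HET. Both sides moved: the mitochondrial sum was 203 and 195 FPKM in KO and 97.5 and 104 FPKM in WT, and the cytosolic sum 30.4 and 29.6 FPKM in KO and 82.5 and 83.9 FPKM in WT. In MUT and HET the mitochondrial sums were 192 and 144 FPKM and the cytosolic sums 31.0 and 97.4 FPKM. The ratio is a sum over chosen genes and carries no test. Mitochondrial Mthfd2l (means of 6.701 FPKM in KO and 7.178 FPKM in WT) is not in it. Neither is cytosolic Aldh1l1 (4.145 FPKM in KO and 6.067 FPKM in WT).

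**Figure D3:**
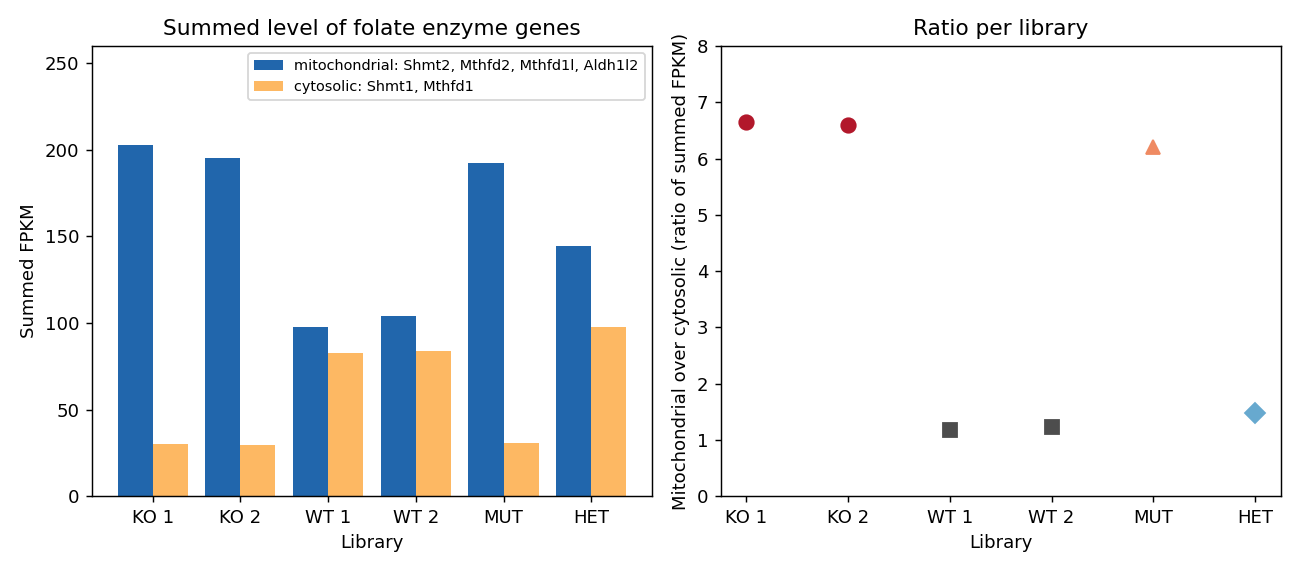
Left, summed FPKM of the mitochondrial and cytosolic folate enzyme genes in each library, and right, their ratio. KO and MUT have ratios between 6.21 and 6.66, and WT and HET between 1.18 and 1.48.

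Pairs of enzymes of like reaction were also compared. All but Aldh1l2 over Aldh1l1 use only genes of the summed ratio, so they restate its shift gene by gene and are no separate observation. Shmt2 over Shmt1 was 9.98 and 8.65 in KO and 1.79 and 1.58 in WT, and 9.88 in MUT and 2.08 in HET. Mthfd2 over Mthfd1 was 3.37 and 3.64 in KO and 0.552 and 0.687 in WT, and 2.90 in MUT and 0.754 in HET, so the order of these 2 genes was opposite in KO and MUT to that in WT and HET. Mthfd1l over Mthfd1 was 0.936 and 0.932 in KO and 0.253 and 0.276 in WT, and 1.01 in MUT and 0.349 in HET. Aldh1l2 over Aldh1l1, its cytosolic counterpart, was 5.68 and 6.34 in KO and 0.796 and 0.803 in WT, and 4.21 in MUT and 1.66 in HET. In each of the 4 pairs KO and WT did not overlap, and the exact two-sided permutation test gave p = 0.333, the smallest that 2 libraries against 2 allow. The differences in these log2 ratios between KO and WT were 2.46, 2.51, 1.82 and 2.91. For Aldh1l2 over Aldh1l1 the difference between MUT and HET was smaller, 1.345. Its denominator Aldh1l1 was lower in KO than in WT (4.37 and 3.92 FPKM against 5.97 and 6.16 FPKM). In MUT, at 5.21 FPKM, it was higher than in HET, at 3.04 FPKM.

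Promoters of the 2 oppositely moving pairs are shown side by side to let their base composition be seen. They are RefSeq windows on GRCm38.p6 of the same extent, 5′ to 3′ on the gene's strand, at chr10:127522395-127522694 (minus) for Shmt2, chr11:60811216-60811515 (minus) for Shmt1, chr6:83317555-83317854 (minus) for Mthfd2 and chr12:76254982-76255281 (plus) for Mthfd1. No letters are in capitals, since none of the motifs searched occurred in them.
Shmt2: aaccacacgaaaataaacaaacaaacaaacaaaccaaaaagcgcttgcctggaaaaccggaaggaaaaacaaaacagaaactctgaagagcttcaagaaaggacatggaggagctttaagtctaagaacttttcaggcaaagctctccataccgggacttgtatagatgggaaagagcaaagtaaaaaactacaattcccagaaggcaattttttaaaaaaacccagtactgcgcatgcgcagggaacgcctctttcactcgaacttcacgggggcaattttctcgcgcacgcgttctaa
Shmt1: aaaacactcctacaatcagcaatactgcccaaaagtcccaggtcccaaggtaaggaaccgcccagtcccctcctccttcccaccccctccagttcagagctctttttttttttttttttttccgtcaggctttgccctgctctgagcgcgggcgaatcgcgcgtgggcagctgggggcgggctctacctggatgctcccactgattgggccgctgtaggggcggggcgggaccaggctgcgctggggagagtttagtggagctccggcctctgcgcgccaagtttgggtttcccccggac
Mthfd2: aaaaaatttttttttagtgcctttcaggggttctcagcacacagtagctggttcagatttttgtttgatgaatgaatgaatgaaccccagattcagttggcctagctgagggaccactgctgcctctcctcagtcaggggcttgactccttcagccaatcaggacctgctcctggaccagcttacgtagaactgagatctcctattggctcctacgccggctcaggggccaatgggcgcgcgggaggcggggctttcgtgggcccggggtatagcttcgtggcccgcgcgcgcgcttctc
Mthfd1: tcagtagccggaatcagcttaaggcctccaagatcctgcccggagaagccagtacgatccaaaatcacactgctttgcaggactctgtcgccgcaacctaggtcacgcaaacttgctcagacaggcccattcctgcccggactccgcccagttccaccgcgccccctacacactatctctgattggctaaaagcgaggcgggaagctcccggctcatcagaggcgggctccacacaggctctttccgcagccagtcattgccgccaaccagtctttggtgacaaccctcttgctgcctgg
G and C made up 42.7% of the Shmt2 window and 60.7% of the Shmt1 window, and 55.7% of the Mthfd2 window and 59.0% of the Mthfd1 window. The median over all 32851 windows was 52.7%, with quartiles of 45.7% and 61.7%.

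By level, Phgdh, Psat1 and Asns led in KO, with means of 175, 138 and 121 FPKM, and Psat1, Phgdh and Mthfd1 led in WT, with means of 86.9, 67.6 and 55.3 FPKM. Among neighbours in the order, Shmt2 and Mthfd2 had overlapping libraries in KO, as did Shmt2 and Asns in WT, and all other neighbours were separate. MUT kept the KO order for its first 6 genes, and its Mthfd1l, Mthfd1 and Aldh1l2 lay close together at 23.0, 22.7 and 21.9 FPKM. HET kept the WT order for Psat1 and Phgdh at the top and for Shmt1, Mthfd1l, Psph and Aldh1l2 at the bottom.

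MUT was set against HET to ask what differs after 4OHT in cells whose second allele is E861A in both groups, with 1 library on each side and no test. Of the 10 genes, 8 stood higher and 2 lower in MUT than in HET, each in the direction it took in KO. For Psat1 and Mthfd1l the difference was too small to give that direction weight. Over all tested genes 50.6% stood higher in MUT than in HET. The share of all tested genes that kept their KO direction was not counted, so the match in direction cannot be read as particular to these genes. Past 2-fold on the log2(FPKM + 1) scale were Aldh1l2 (log2 difference 1.93, 4.36-fold in FPKM), Shmt1 (-1.87) and Mthfd1 (-1.47). Over all tested genes 13.7% passed that mark, 4.93% higher and 8.77% lower in MUT. The remaining differences were 0.87 for Phgdh, 0.81 for Psph, 0.72 for Asns, 0.43 for Mthfd2, 0.26 for Shmt2, 0.08 for Psat1 and 0.03 for Mthfd1l. In a fit that borrows the KO and WT spread for the lone libraries, an assumption, limma called 7 of the 10, all but Shmt2, Psat1 and Mthfd1l, with 43.3% of all genes called.

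The effect of 4OHT on the Fl/Fl background was set against that on the Fl/E861A background in 1 fit over all 6 libraries, which assumes that the lone MUT and HET libraries vary like the replicated ones. The difference between effects was called for Psph alone among the 10 genes, where it was 0.87 in log2 units (SE 0.18, limma adjusted p = 0.0272), with 4.01% of all tested genes called. Psph was no longer called when WT 1 was left out (adjusted p = 0.0769), when WT 2 was left out (adjusted p = 0.0815) or when low genes were kept (adjusted p = 0.172). Mthfd2 and Asns, at 0.70 and 0.66, were not called with all libraries (adjusted p = 0.0795 and 0.0807), but were called without KO 1 (adjusted p = 0.00456 and 0.0131) and without KO 2 (adjusted p = 0.00806 and 0.00617). Psat1 was called without KO 1 (0.65, adjusted p = 0.00677) and Phgdh without KO 2 (0.58, adjusted p = 0.0267). With a KO library left out the spread comes from the WT pair alone, and the estimates for Mthfd2 (0.71 and 0.69) and Asns (0.63 and 0.69) stayed close to those from all libraries. Their SEs stayed close too, at 0.193 and 0.192 for Mthfd2 (0.192 with all libraries) and 0.188 and 0.187 for Asns (0.181 with all libraries). The calls of these genes thus came with neither a clearly larger difference nor a smaller SE. For Aldh1l2, Shmt1 and Mthfd1 the differences between effects were 0.22, 0.25 and 0.15, with 95% intervals of -0.16 to 0.60, -0.14 to 0.64 and -0.21 to 0.52. With all libraries they were 0.49 for Phgdh, 0.59 for Psat1, 0.47 for Shmt2 and 0.41 for Mthfd1l. The 95% intervals of these were 0.109 to 0.873, 0.15 to 1.022, 0.095 to 0.843 and 0.03 to 0.793. The intervals are not adjusted for the number of genes tested.

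The vehicle libraries were not alike. In all 10 genes HET lay above both WT libraries, by 1.54-fold for Mthfd1l, 1.51-fold for Psph, 1.45-fold for Shmt2, 1.43-fold for Psat1 and Mthfd2, and 1.04-fold for Aldh1l2, taking the WT mean. Against the WT mean on the log2 scale all 10 were also higher in HET, as were 51.4% of all tested genes (median 0.01). The share of all genes above both WT libraries was not counted. In the same fit with borrowed spread limma called 6 of the 10 genes in HET against WT, with 13.9% of all genes called. They were Mthfd1l, Shmt2, Psph, Psat1, Mthfd2 and Asns, at log2 differences of 0.60, 0.53, 0.54, 0.52, 0.51 and 0.44 (adjusted p from 0.0099 to 0.0454). The 4OHT libraries lay closer together. MUT was between 0.792 and 1.14 times the KO mean in all 10 genes, and the same fit called 0 of the 10 in MUT against KO, with 11.3% of all genes called. The smallest adjusted p there was 0.148, for Psph (log2 difference -0.32, SE 0.13). KO against WT and HET against WT share the WT libraries, so their values are given side by side only.

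Regulators of the amino acid response were higher in KO more often than lower. Of 15 tested, 11 rose, 2 fell and 2 were not called (median log2 difference 0.60). Among all tested genes, 29.5% were called as higher and 28.2% as lower. Atf4 rose in KO (200 and 171 FPKM in KO, 122 and 121 FPKM in WT, log2 difference 0.60, adjusted p = 0.000658) and stood at 178 FPKM in MUT and 151 FPKM in HET. The largest changes were those of Ddit3, which encodes CHOP (761 and 743 FPKM in KO, 54.5 and 52.0 FPKM in WT), of Atf3, a stress-induced factor (log2 difference 3.27), of the pseudokinase Trib3 (2.86) and of Mycn, a MYC family factor, which fell (-3.23). Myc, a known activator of serine and folate genes, rose by 1.76 (SE 0.11, adjusted p = 5.13e-07), with 43.7 and 36.2 FPKM in KO and 11.06 and 11.05 FPKM in WT. Transcripts of the introduced Myc and of the cells' own gene are not separated in these values. The eIF2 alpha kinase genes Eif2ak1 (log2 difference -0.06) and Eif2ak4, which encodes GCN2 (-0.10), were the 2 not called. Eif2ak3, which encodes PERK, fell (3.76 and 3.83 FPKM in KO, 8.23 and 8.55 FPKM in WT, log2 difference -0.97, adjusted p = 2.4e-05). Eif2ak2, which encodes PKR, a sensor of double-stranded RNA, is on a row shared with Sult6b1 that rose (log2 difference 0.44, adjusted p = 0.00328). Both were named after their values were seen.

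Outside the 10 genes, most folate genes were not called. Among 15 tested folate enzymes and carriers the counts were 1 rising, 5 falling and 9 without a call (median -0.10), where 28.2% of all tested genes were called as lower. Tyms, which makes thymidylate, fell, with a log2 difference of -0.98 (adjusted p = 1.5e-05), and the folate receptor Folr1 fell from a low level, with 0.04 and 0.18 FPKM in KO and 1.05 and 1.08 FPKM in WT. Aldh1l1, the cytosolic counterpart of Aldh1l2, fell by 0.46 (adjusted p = 0.00472). Mthfd2l, the mitochondrial paralog of Mthfd2, was not called (5.77 and 7.63 FPKM in KO, 7.46 and 6.90 FPKM in WT), nor was the mitochondrial folate carrier Slc25a32 (log2 difference -0.27, adjusted p = 0.0586, and 0.0477 with median-of-ratios scaling). The count of rises in this list was 2 without WT 2, 3 without KO 1, 2 without KO 2 and 2 with quantile normalization.

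Genes that use or break down serine and glycine moved both ways, with 4 rising, 5 falling and 2 not called of 11 tested (median -0.18). Amt, counted among the 5, is on a row shared with Nicn1 and cannot be read alone. Among all tested genes, 29.5% were called as higher and 28.2% as lower. Gldc, the decarboxylase of the glycine cleavage system, fell most, with 1.03 and 0.67 FPKM in KO and 5.42 and 8.02 FPKM in WT (log2 difference -2.05, adjusted p = 3.39e-06). Cbs, which joins serine to homocysteine, fell by 1.41 and Sardh, sarcosine dehydrogenase, by 1.12. Sdsl, a serine dehydratase-like enzyme, rose by 1.07, with 2.15 and 2.19 FPKM in KO and 0.40 and 0.63 FPKM in WT. Srr, which makes D-serine, and Cth, which makes cysteine, were not called (log2 differences 0.17 and -0.18), although Cth was called as lower with quantile normalization (adjusted p = 0.0261).

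The lists that follow stand beside shares of 29.5% called as higher and 28.2% as lower over all tested genes. Purine synthesis, a main user of cytosolic folate carbon, fell in 7 of 13 tested genes, with 1 rising and 5 not called (median -0.30). Impdh2, counted among the 7, is on a row shared with Qars and Qrich1 and cannot be read alone. Ppat, its committed amidotransferase, had 10.6 and 11.01 FPKM in KO and 22.8 and 24.8 FPKM in WT (log2 difference -1.07), and Pfas and Prps1 fell by 0.79 and by 0.76. Adssl1, the muscle-type adenylosuccinate synthase, was the gene that rose (1.44). Prps2, Adsl, Atic, Gmps and Adss were not called, with log2 differences between -0.22 and 0.23. Without KO 1 the count of rises was 3, with Atic and Adss added. The methionine cycle had 8 tested genes, of which 2 rose and 1 fell (median 0.12). Mtr, methionine synthase, fell by 0.51, Mtap, which salvages methionine, rose by 0.46, and Mtrr, which reactivates methionine synthase, rose by 0.32 (adjusted p = 0.0197). Mtrr was no longer called when WT 1, WT 2 or KO 2 was left out (adjusted p = 0.0992, 0.0632 and 0.108). Mat2a, Mat2b, Ahcy, Ahcyl1 and Ahcyl2 were not called, and Mat2a, at -0.26, was called as lower with median-of-ratios scaling, with quantile normalization and without KO 2 (adjusted p = 0.0381, 0.00486 and 0.0173), and Ahcy, at -0.19, with quantile normalization (adjusted p = 0.023).

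**Figure D4:**
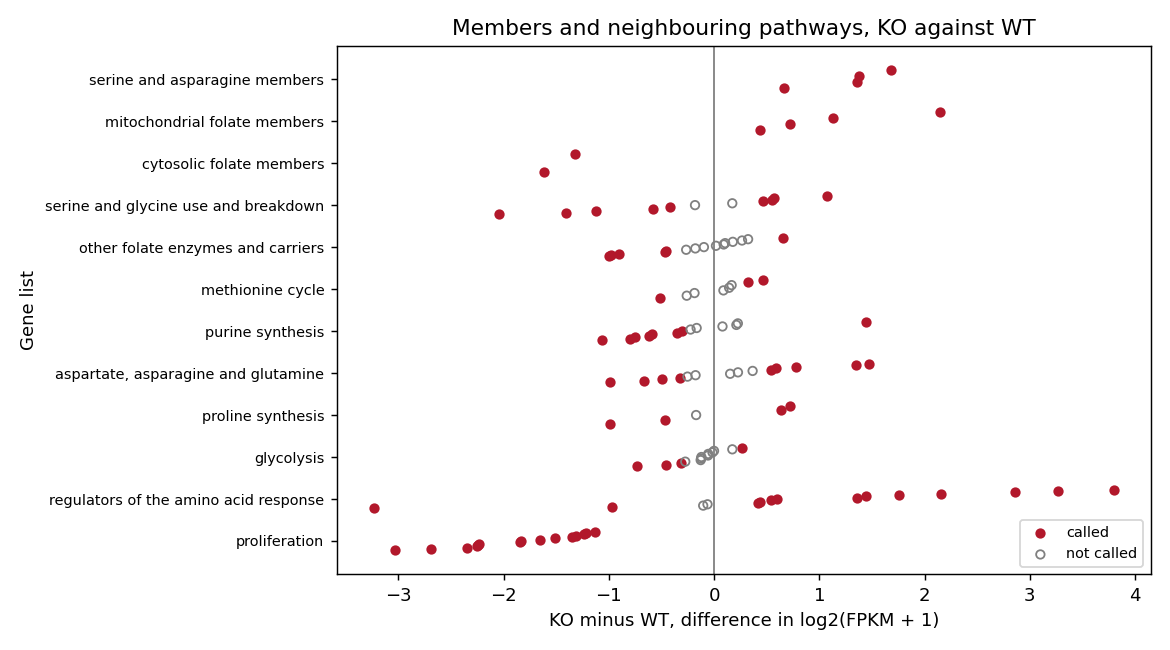
Difference in log2(FPKM + 1) between KO and WT for each tested gene, 1 row of points per list, with called genes (limma adjusted p under 0.05) filled and the others open. The serine, asparagine and mitochondrial folate genes lie right of 0, while the cytosolic folate genes and all 15 proliferation genes lie left of it.

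Around asparagine, 5 of 14 tested aspartate, asparagine and glutamine genes were called as higher and 4 as lower (median 0.19). Over all tested genes the shares were 29.5% higher and 28.2% lower, so the counts of this list are near them. Gpt2, mitochondrial alanine aminotransferase, rose by 1.47 and Nars, the cytosolic asparaginyl-tRNA synthetase, by 1.35, with 325 and 318 FPKM in KO and 117 and 135 FPKM in WT. Got1, which makes cytosolic aspartate, rose by 0.78, and the glutaminase Gls2 fell by 0.98, with 0.13 and 0.16 FPKM in KO and 0.99 and 1.58 FPKM in WT. Asnsd1, Got2, Gpt, Nars2 and Slc25a12 were not called (log2 differences 0.15, 0.23, -0.25, 0.37 and -0.18). Single settings gave a call for 4 of these: Asnsd1 without KO 1 (adjusted p = 0.0217), Got2 without KO 2 (0.0424), Gpt as lower without WT 2 (0.0328), and Nars2 without WT 2, without KO 1 and with quantile normalization (0.012, 0.0114 and 0.00616). Of 5 tested proline genes, Aldh18a1 and Pycr1, which make proline, rose by 0.72 and 0.64. Prodh, which breaks proline down, fell by 0.99, and Pycrl was not called (-0.17). Glycolysis, the source of the carbon for serine, showed smaller differences: of 13 tested genes 1 was called as higher and 3 as lower (median -0.12). Pfkm fell by 0.73, Pfkl by 0.46 and Pgam1 by 0.32, and Hk1 rose by 0.26 (adjusted p = 0.0478). The Hk1 call was lost without WT 1, without WT 2, without KO 1, with no filter and with either rescaling (adjusted p from 0.0571 to 0.279), and the Pgam1 call without WT 1, without WT 2, without KO 2 and with no filter (adjusted p from 0.0521 to 0.144).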

How the data were processed

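TRIzol was used to extract RNA and a Ribo-Zero kit to remove ribosomal RNA, per the labels' protocols. Per the submitters' processing notes the tools were Cufflinks 2.2.1, TopHat2 2.1.1 and Bowtie2 2.3.0, and the builds mm10 and GRCm38, with no roles named; the sources used here give no annotation, strand setting or scaling. The deposited values are the authors' FPKM for each gene row, as the file headers say, written with decimal commas. Depth is not stated; the estimates fit whole fragments to low values of 3728 single-transcript genes at an assumed fragment length of 200 bases. Replicates differed by more than counting noise (median chi-square 1.64 in KO and 1.27 in WT, against 0.45).

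Rows without a name (1021 of 24879) were left out, and for 314 names on several rows the row of highest mean was kept. Values were tested as log2(FPKM + 1), which understates changes of low genes, with limma 3.58.1 in R 4.3.3 (two-sided, eBayes with a trend, adjusted by Benjamini-Hochberg over 12266 genes, called under 0.05), checked on simulated data. KO against WT used 4 libraries and the difference between effects all 6. SDs are over FPKM and SEs are limma's. Gene coordinates are from GENCODE release M 21 on GRCm38 and promoters from RefSeq on GRCm38.p6.

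The 10 genes and the gene lists were chosen with earlier results of these data known. From each pathway, regulator and proliferation list the text names the up to 4 called genes of largest difference and, where they number 5 or fewer, those not called, beside a fixed set of single genes; some genes this rule names are not reported here. Alternatives were another pseudocount (0.1), no filter, median-of-ratios scaling, quantile normalization, summed rows, a replicate block, 4 group means and leaving out each WT or KO library. The fits with pooled spread for HET against WT and MUT against KO were added after seeing the data.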

Additional observations from a re-analysis of the deposited data

Results flagged for a closer look

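The effect of 4OHT differed between the Fl/Fl and the Fl/E861A background for 7 of the 71 genes that the naming rule picked (9.86%, against 4.01% of all tested genes; most were picked by their KO against WT difference, which enters this one), by the fit over all 6 libraries in which the lone MUT and HET libraries are assumed to vary like the others. Each difference is KO minus WT less MUT minus HET on the log2 scale, with limma's adjusted p. Psph had 0.87 (adjusted p = 0.0272). Cth, which makes cysteine from cystathionine, had 0.97 (adjusted p = 0.0113), with 35.9 and 37.6 FPKM in KO, 40.7 and 43.0 FPKM in WT, 28.8 FPKM in MUT and 65.0 FPKM in HET. Aldh1l1 had -1.08 (adjusted p = 0.0135) and moved in opposite directions, with 4.37 and 3.92 FPKM in KO, 5.97 and 6.16 FPKM in WT, 5.21 FPKM in MUT and 3.04 FPKM in HET. Sardh had -1.05 (adjusted p = 0.0219), with 3.12 and 2.50 FPKM in KO, 7.50 and 7.02 FPKM in WT, 5.35 FPKM in MUT and 5.69 FPKM in HET. Got1 had 0.72 (adjusted p = 0.0366), Atf3 had 1.06 (adjusted p = 0.00866) and the proliferation marker Mki67 had -0.76 (adjusted p = 0.0494). Of the 6 genes other than Psph, Sardh, Got1 and Mki67 lost the call without WT 1 and without WT 2 (adjusted p from 0.0501 to 0.132), Mki67 also with quantile normalization (adjusted p = 0.0782), and all 6 when low genes were kept (adjusted p from 0.122 to 0.188).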

How the results depend on the processing

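In KO against WT all 10 genes kept their direction and their call under each of the 11 alternatives run, with 5739 to 7280 genes called outside the replicate block. With the replicate block 7959 genes were called, 10 of the 10 among them; same-numbered KO and WT libraries deviated together only weakly (r = 0.183), so the numbers were not taken to pair the samples. Of the 61 named genes outside the 10, 7 that were not called without the block were called with it: Mat2a, Atic, Gmps, Adss, Got2, Nars2 and Slc25a32 (adjusted p from 0.0139 to 0.0336). For the difference between effects, leaving out 1 replicate gave between 286 and 1192 called genes and between 0 and 4 of the 10. With no filter on low values limma called 0 genes and 0 of the 10, with 2814 of 17762 at an unadjusted p under 0.05, against 2118 of 12266 with the filter; the cause was not tested. The mitochondrial over cytosolic log2 ratio was 2.45 higher in KO than in WT and 2.07 higher in MUT than in HET. As a difference of mean log2(FPKM + 1) these were 2.58 and 2.33. They were 2.34 and 1.92 without Shmt1, 2.71 and 2.40 without Mthfd1, 2.64 and 2.19 without Shmt2, 2.53 and 2.13 without Mthfd1l, and 2.33 and 1.94 without Aldh1l2, and the first was 2.36 without Mthfd2. With a pseudocount of 1 in both terms, Aldh1l2 over Aldh1l1 differed by 2.60 on the log2 scale. Scaling moved the median of all genes to at most 0.06 on the log2 scale. FPKM without read totals gives no counting interval, and 1 MUT and 1 HET library leave their own spread unknown.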

Other observations

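The make-up of the mitochondrial folate genes also differed between libraries. Aldh1l2 held 12.2% and 12.7% of their summed FPKM in KO, 4.88% and 4.77% in WT, 11.4% in MUT and 3.48% in HET. Mthfd1l held 10.3% and 10.01% in KO, 14.5% and 14.6% in WT, 12.0% in MUT and 15.6% in HET. Genes of serine palmitoyltransferase, which joins serine to palmitoyl-CoA to begin sphingolipid synthesis, were picked after their values were seen. Sptlc1 rose in KO by 0.46 and Sptlc2 by 0.57 on the log2 scale (limma adjusted p = 0.00173 and 0.000552). Sptlc2 had 45.6 and 46.2 FPKM in KO, 29.3 and 32.0 FPKM in WT, 43.4 FPKM in MUT and 30.95 FPKM in HET.

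Genes of the most similar pattern were taken as those with the smallest distance to a member over 6 libraries, on log2(FPKM + 1) centred per gene, among 8730 others with a mean of at least 5 FPKM. For Asns they were Rrad (distance 0.15), Phgdh (0.20), a row shared by Map3k15 and Sh3kbp1 (0.24) and Nars (0.27). For Mthfd2 they were the aminoacyl-tRNA synthetase genes Cars (0.16) and Lars (0.22), then Pter (0.23) and Pcgf5 (0.25). For Mthfd1 they were Ppih (0.09), Hmgn5 (0.14), Col11a1 (0.19) and Tpcn1 (0.20), and for Shmt1 they were Fam60a (0.24), Nod1 (0.24), Tppp3 (0.25) and Dnajc21 (0.26). These distances are descriptions over libraries that fall into 4 groups.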
